A study of Mus musculus with 2 samples.

Results

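The 10 genes described here are immediate-early transcription factors and a close companion of them: Fos, Fosb, Jun, Junb, Jund, Atf3, Egr1, Klf2, Klf4 and Ier2. They were taken by symbol from the 32285 genes of the deposited tables, not by their values, and all 10 had UMIs in both libraries. They were measured by single-cell 3′ RNA sequencing of sorted tumor endothelium from 2 kinds of mice. Ifngr1iProx1 mice, called Cre plus, are named for the interferon-γ receptor gene Ifngr1 and for Prox1, the transcription factor of lymphatic identity, and Ifngr1WT mice, called Cre minus, are their controls. All mice carried B16F10-OVALBUMIN/VEGFC tumors, a mouse melanoma line with the model antigen ovalbumin and the lymphatic growth factor VEGFC, grown from 500K cells placed in the skin. On day 15, 3 tumors of each genotype were pooled, digested with collagenase IV and DNase I for 30 min at 37 °C, and sorted as DAPI-, CD31+, CD45- cells. Each genotype is thus 1 library, so no difference between genotypes could be tested. The intervals in brackets are 95% intervals that cover counting error only, not differences between barcodes, mice, tumors or sorts.

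Immediate-early genes are switched on within minutes of a growth factor, cytokine or mechanical stimulus, from factors already present in the cell and with no need for new protein. Fos, Fosb, Jun, Junb and Jund encode the subunits of AP-1, a dimer of basic leucine zipper proteins, and Atf3 encodes a stress-induced member of the same superfamily that pairs with them. Egr1, Klf2 and Klf4 encode zinc finger factors, and KLF2 and KLF4 are the factors that laminar shear stress induces in endothelium, where they hold the vessel wall in a quiet state. Tissue digestion at warm temperature is also known to induce many of these genes, so levels in dissociated cells are levels after dissociation.

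Of 2491 barcodes and 66704257 UMIs in Cre plus, and 2502 barcodes and 76967583 UMIs in Cre minus, 1782 of the Cre plus and 1552 of the Cre minus barcodes passed the filters of at least 500 genes and under 10% mitochondrial UMIs. Only 1 cell barcode sequence occurred in both libraries. Marker genes placed 1592 Cre plus and 1418 Cre minus barcodes in a class, among them lymphatic endothelial cells (LEC), blood endothelial cells (BEC) and, although the sort aimed at CD31+, CD45- cells, melanoma cells, macrophages or monocytes, pericytes or fibroblasts and T or NK cells. Each class was split by its share of Malat1, a nuclear long RNA, into Malat1-rich barcodes with at least 0.1% of UMIs from Malat1 and Malat1-poor barcodes with less. Levels are given as CPM, the UMIs of a gene per 1000000 UMIs of all barcodes of that class and Malat1 group in 1 library. As 3′ counts carry no length scale, levels were compared for 1 gene across groups and not between genes. Ifngr1 itself stood at 453 UMIs and 32.5 CPM [29.5, 35.6] in Malat1-rich LEC of Cre plus and at 70 UMIs and 86.6 CPM [67.5, 109] in those of Cre minus. In Malat1-rich BEC it stood at 194 CPM [181, 209] in Cre plus, against 174 CPM [158, 191] in Cre minus. Prox1 stood at 660.0 CPM in Cre plus LEC and 849 CPM in Cre minus LEC of the Malat1-rich group, and in BEC of that group it had 4 UMIs for Cre plus and 0 UMIs for Cre minus.

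The members lie on 6 chromosomes of mm10, by the GENCODE annotation. The AP-1 genes are Fos (chr12:85473890-85477273, plus strand), Fosb (chr7:19302696-19310051, minus), Jun (chr4:95049034-95052222, minus), Junb (chr8:84974484-84978718, minus), Jund (chr8:70698949-70700616, plus) and Atf3 (chr1:191170296-191218039, minus). Of the zinc finger genes, Klf2 lies at chr8:72319033-72321656 on the plus strand and Klf4 at chr4:55527143-55532466 on the minus strand, and Ier2, a small nuclear co-regulator, lies at chr8:84661331-84662852 on the minus strand. On the opposite strand Jun overlaps Junos, Junb overlaps Prdx2, Jund overlaps Gm11175 and Atf3 overlaps Gm24748. Reads of such pairs cannot be told apart if the counting ignored strand, and the labels do not state its strand setting. RefSeq promoters of GRCm38.p6, 250 bases before to 50 after a start, were matched for 8 of the 10 members. Those of 4 members whose entry begins at or near the annotated start are shown, because Fosb, Fos and Klf4 differed most between Malat1 groups of LEC in Cre plus and Klf2 and Klf4 differed between LEC and BEC in both libraries; the Fos window is chr12:85473640-85473939, Fosb chr7:19309996-19310295, Klf2 chr8:72318812-72319111 and Klf4 chr4:55532426-55532725. Capitals mark TGACG, the core of the cyclic AMP response element (printed as CGTCA where it lies on the other strand) in Fos, Fosb and Klf4, TATAAA in Fos, and the box of the MEF2 factors in Klf2.
Fos: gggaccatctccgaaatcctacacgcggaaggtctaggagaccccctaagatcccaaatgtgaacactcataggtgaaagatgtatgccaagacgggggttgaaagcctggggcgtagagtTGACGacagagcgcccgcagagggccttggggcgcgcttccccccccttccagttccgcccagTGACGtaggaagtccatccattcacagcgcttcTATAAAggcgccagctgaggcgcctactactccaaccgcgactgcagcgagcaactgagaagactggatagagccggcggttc
Fosb: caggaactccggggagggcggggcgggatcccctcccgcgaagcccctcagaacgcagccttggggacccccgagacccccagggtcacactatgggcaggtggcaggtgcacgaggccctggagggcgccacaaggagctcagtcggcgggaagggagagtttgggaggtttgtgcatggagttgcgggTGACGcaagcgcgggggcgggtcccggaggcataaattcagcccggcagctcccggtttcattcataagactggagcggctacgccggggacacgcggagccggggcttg
Klf2: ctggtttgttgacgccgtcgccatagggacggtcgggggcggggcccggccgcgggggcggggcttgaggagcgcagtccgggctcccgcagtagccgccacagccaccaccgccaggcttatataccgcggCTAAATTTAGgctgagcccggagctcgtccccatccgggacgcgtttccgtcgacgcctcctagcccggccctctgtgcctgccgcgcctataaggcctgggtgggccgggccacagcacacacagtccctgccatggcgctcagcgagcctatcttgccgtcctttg
Klf4: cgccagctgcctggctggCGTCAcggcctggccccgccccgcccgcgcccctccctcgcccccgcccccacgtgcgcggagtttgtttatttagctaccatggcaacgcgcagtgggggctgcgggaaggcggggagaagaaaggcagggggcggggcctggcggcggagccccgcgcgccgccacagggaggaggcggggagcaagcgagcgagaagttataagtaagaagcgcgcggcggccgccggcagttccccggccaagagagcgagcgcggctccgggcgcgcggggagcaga

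The motif search read both strands of the 8 windows. The start used for Jund lies at -1210 bases from the annotated gene start, and that for Atf3 at 34706 bases, inside the gene. Matches or their absence in the Jund and Atf3 windows therefore do not describe the annotated starts. TGACG was found in Fos, with 2 matches, and once each in Fosb, Junb, Atf3, Klf2 and Klf4, and 20.8% of all 32851 promoters of the same length hold it. The full element TGACGTCA, which contains it, and the AP-1 site TGANTCA were in none of the 8, against 1.79% and 7.81% of all promoters. A MEF2 box was in Jun, Atf3 and Klf2, against 0.557% of all promoters, and TATAAA was in Fos and Junb, against 13.6%. The CArG box of serum response factor was in none of these windows and in 1.63% of all promoters, and GGGCGG, whose neighbouring matches partly overlap, was in Fos, Fosb, Jun, Atf3, Klf2 and Klf4 and in 35.7%. These are matches of letters in a window and not measured sites.

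In Malat1-rich LEC the members stood higher in the Cre plus library than in the Cre minus library, except Egr1, which stood lower, and Ier2, which was nearly equal. The 10 members together took 1375 CPM [1356, 1395] in 435 barcodes of Cre plus, against 879.8 CPM [816, 947] in 36 barcodes of Cre minus, a log2 ratio of 0.64 [0.54, 0.75]. Of the 10 members 9 were higher in Cre plus, 7 of them by at least 1.5-fold, where 11.6% of the 11036 genes with at least 50 UMIs were higher by as much. The lone member lower by at least 1.5-fold, Egr1, stands beside 15.7% of all genes. The median log2 ratio was 0.70 over the members and -0.09 over all genes.

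Fos, the founding partner of JUN in AP-1, had 1036 UMIs and 74.2 CPM [69.8, 78.9] in Cre plus, against 21 UMIs and 26.0 CPM [16.1, 39.7] in Cre minus, a log2 ratio of 1.51 [0.89, 2.21]. Fosb, its close paralog, had 531 UMIs and 38.1 CPM in Cre plus, against 3 UMIs and 3.71 CPM, all in 1 barcode, in Cre minus, a log2 ratio of 3.36 [1.803, 5.64]. Atf3, the stress-induced partner, had 609 UMIs and 43.6 CPM in Cre plus, against 12 UMIs and 14.8 CPM in Cre minus, a log2 ratio of 1.56 [0.74, 2.52]. These 3 members had the highest ratios of the 10 and rested on the fewest Cre minus UMIs. The Jun genes differed less. Jun, the main activating partner, had 2438 UMIs and 175 CPM in Cre plus, against 91 UMIs and 113 CPM in Cre minus, with a log2 ratio of 0.63 [0.33, 0.95]. Junb, often a weaker activator than JUN, had 3056 UMIs and 219 CPM in Cre plus, against 115 UMIs and 142 CPM in Cre minus, with a log2 ratio of 0.62 [0.35, 0.90]. Jund, the Jun gene with the steadiest expression in unstimulated cells, had 4689 UMIs and 336 CPM in Cre plus, against 157 UMIs and 194 CPM in Cre minus, with a log2 ratio of 0.79 [0.56, 1.03]. All 6 AP-1 members thus had intervals above 0.

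The zinc finger members went different ways. Klf2, a shear-induced factor of endothelium, had 3317 UMIs and 238 CPM in Cre plus, against 113 UMIs and 140 CPM in Cre minus, a log2 ratio of 0.77 [0.49, 1.05]. Klf4, which overlaps KLF2 in its endothelial targets, had 1420 UMIs and 101.8 CPM in Cre plus, against 63 UMIs and 78.0 CPM in Cre minus, a log2 ratio of 0.38 [0.02, 0.77]. Egr1, a growth factor response gene at chr18:34859823-34864984 on the plus strand, had 521 UMIs and 37.3 CPM in Cre plus, against 50 UMIs and 61.9 CPM in Cre minus, a log2 ratio of -0.73 [-1.15, -0.28]. Its 50 Cre minus UMIs came from 10 barcodes, and 17 of them came from 1 barcode. Ier2 had 1576 UMIs and 113 CPM in Cre plus, against 86 UMIs and 106 CPM in Cre minus, and its log2 ratio of 0.09 [-0.23, 0.42] spanned 0.

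**Figure D1:**
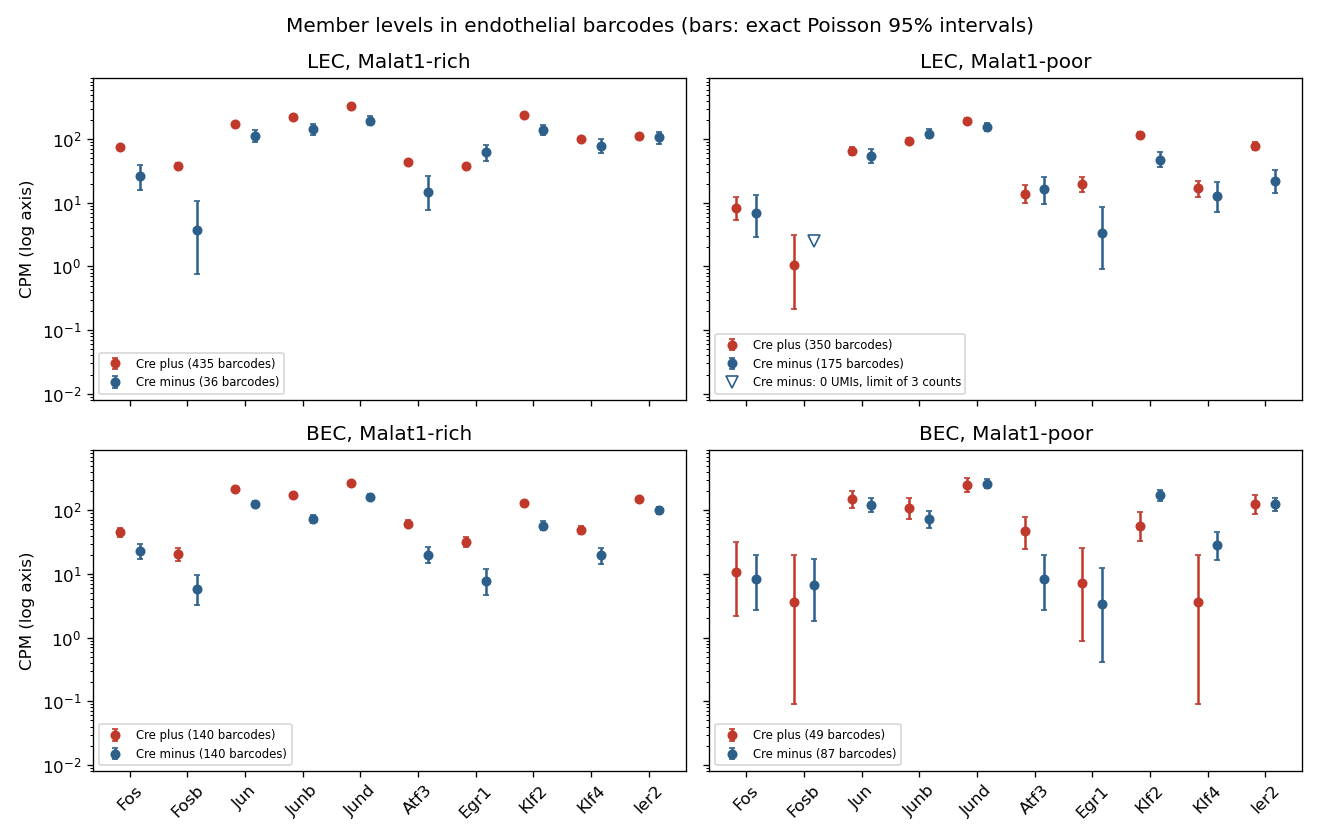
Level of each member, as CPM on a log axis, in Malat1-rich and Malat1-poor LEC and BEC of the Cre plus library (red, left of each pair) and the Cre minus library (blue); bars are exact Poisson 95% intervals and the open triangle is the limit of 3 counts for 0 UMIs. In Malat1-rich BEC all 10 red points lie above their blue partners, and in Malat1-rich LEC all but Egr1 do.

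The Cre minus side of the LEC comparison rested on few barcodes. In Cre plus 1 barcode held 2.30% of the member UMIs and 10 held 12.7%, whereas in Cre minus 1 barcode held 35.9%, 255 of 711, and 10 held 76.7%. That leading Cre minus barcode was also deep, with 139644 of the 808182 UMIs of its group, and the leading Cre plus one had 72317 of 13954566. Without the 10 leading barcodes of each library the summed log2 ratio was 1.63, and the Egr1 ratio turned to 0.74; without the leading 5% of barcodes, a setting chosen after seeing the data, the summed ratio was 1.00. Leaving out barcodes with 3 or more markers of a second class kept 159 Cre plus and 17 Cre minus barcodes, and the summed ratio was then 1.23. With every barcode thinned to 2000 UMIs the summed ratio was 0.81, but Egr1 turned to 0.28, Klf2 to -0.088 and Klf4 to -0.074. Median depth was 29555 UMIs per barcode in Cre plus, against 18691.5 in Cre minus. Among the deeper barcodes of each library, those above its median, the members took 1383 CPM in Cre plus, against 907 CPM in Cre minus, and among the shallower ones 1354 CPM in Cre plus, against 791 CPM in Cre minus.

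Markers of other classes were present in these LEC sums. Macrophage markers took 35.3 CPM in Cre plus, against 97.8 CPM in Cre minus, with 8 of 9 detected in each and Adgre1 at 0, and melanoma markers 54.5 CPM and 95.3 CPM in that order, with 8 of 8 detected in each. BEC markers took 464 CPM in Cre plus (9 of 9), against 492 CPM in Cre minus (6 of 9, with Esm1, Aplnr and Sox17 at 0). T or NK markers were at 1.505 CPM in Cre plus (5 of 9) and at 0 in Cre minus. Their part in the member levels was not tested.

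**Figure D2:**
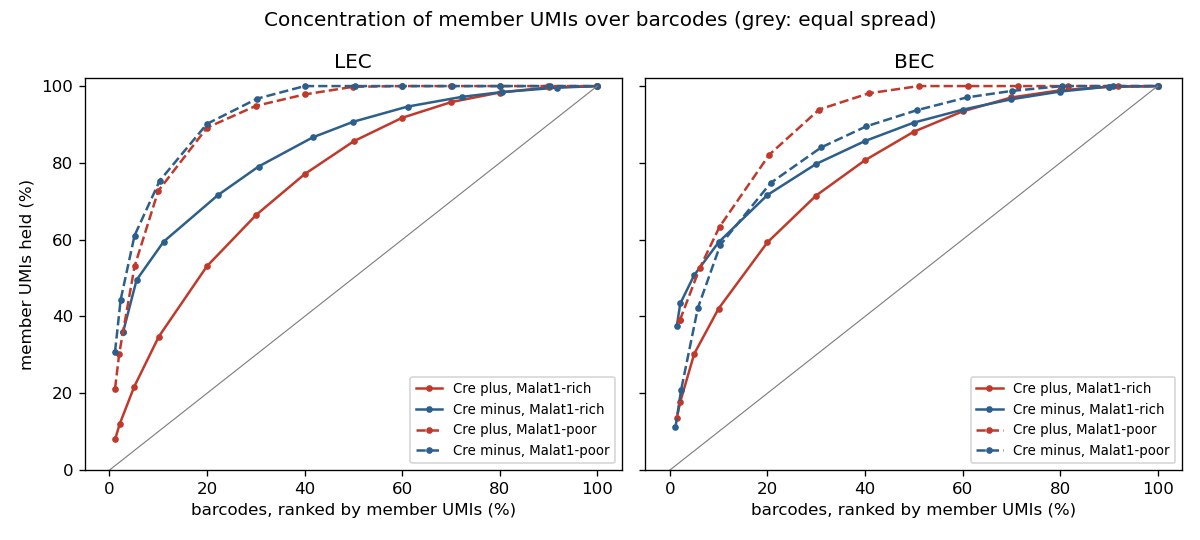
Share of member UMIs (vertical, %) held by the barcodes with most of them (horizontal, % of the group's barcodes, ranked) in LEC and BEC; solid lines are Malat1-rich and dashed lines Malat1-poor barcodes, red Cre plus and blue Cre minus, and the grey line is an equal spread. In Malat1-rich LEC the red curve lies nearest the grey line, and the blue curve starts at 35.9% for 1 of 36 barcodes while both Malat1-poor curves run above it. The curves are not adjusted for the depth of the barcodes.

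Malat1-poor LEC held fewer member UMIs in both libraries, and there the members did not go one way between genotypes. Together they took 609 CPM [581, 638] in 350 barcodes of Cre plus, against 442 CPM [404, 481] in 175 barcodes of Cre minus, a log2 ratio of 0.46 [0.32, 0.61] that turned to -0.090 when barcodes were thinned to 2000 UMIs. Fos, with 24 Cre plus and 8 Cre minus UMIs, had under 50 UMIs in all, and so had Fosb, with 3 Cre plus and 0 Cre minus UMIs, where 0 allows up to 2.55 CPM. Of the other 8 members 6 were higher in Cre plus, 3 of them by at least 1.5-fold (18.9% of 6144 genes), and none was lower by as much (2.86%); their median log2 ratio was 0.37, against 0.17 over all genes. Those 3 were Egr1, with 56 UMIs and 19.6 CPM in Cre plus, against 4 UMIs and 3.40 CPM in Cre minus, Ier2, with 77.9 CPM in Cre plus, against 22.1 CPM in Cre minus, and Klf2, with 117 CPM in Cre plus, against 47.7 CPM in Cre minus. Their log2 ratios were 2.52 [1.09, 4.45] for Egr1, 1.82 [1.23, 2.46] for Ier2 and 1.30 [0.88, 1.73] for Klf2. Egr1 was lower in Cre plus in the Malat1-rich group and higher in this one, and thinned to 2000 UMIs it stood at -0.50 here.

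Junb was the lone member lower in Cre plus LEC of the Malat1-poor group with an interval off 0, with 268 UMIs and 93.6 CPM in Cre plus, against 144 UMIs and 123 CPM in Cre minus, a log2 ratio of -0.39 [-0.69, -0.09]. Of those 144 UMIs 91 came from 1 barcode, 63.2%, and without the leading 5% of barcodes the ratio was 1.73. Jund had 196 CPM in Cre plus, against 155 CPM in Cre minus, Jun 65.0 and 55.3 CPM, Klf4 16.8 and 12.8 CPM and Atf3 14.0 and 16.2 CPM in the same order. Of these 4 members Jund alone had an interval off 0, with a log2 ratio of 0.34 [0.10, 0.59]. Haemoglobin and other red cell markers took 221 CPM in Cre plus, against 1145 CPM in Cre minus here, with 5 of 5 detected in each, melanoma markers 58.7 CPM in Cre plus (7 of 8, with Sox10 at 0), against 102.1 CPM in Cre minus (8 of 8), and macrophage markers 67.1 CPM in Cre plus (8 of 9, Adgre1 at 0), against 62.1 CPM in Cre minus (8 of 9, Csf1r at 0). Their part in the member levels was not tested.

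In Malat1-rich BEC every member was higher in the Cre plus library. The sum was 1142 CPM [1108, 1176] in 140 barcodes of Cre plus, against 593 CPM [564, 623] in 140 barcodes of Cre minus, a log2 ratio of 0.95 [0.86, 1.03]. As reported, all 10 members were at least 1.5-fold higher, where 7.88% of 9279 genes were and 8.63% were lower by as much, and the median log2 ratio was 1.198 over the members and -0.05 over all genes. Egr1 had the highest ratio, with 121 UMIs and 31.8 CPM in Cre plus, against 20 UMIs and 7.68 CPM in Cre minus, a log2 ratio of 2.05 [1.36, 2.81]. With every barcode thinned to 2000 UMIs, Egr1 (0.31), Fos (0.46) and Ier2 (0.04) were under 1.5-fold higher, and Ier2 was also under it as a mean over barcodes (0.397) and under the stricter barcode filter of 1000 genes and 5% mitochondrial (0.43). Fosb followed with 20.5 CPM in Cre plus, against 5.76 CPM in Cre minus (log2 ratio 1.83 [1.02, 2.74]), and Atf3 with 61.5 CPM in Cre plus, against 19.96 CPM in Cre minus (1.62 [1.18, 2.08]). The shear-induced factors were higher too. Klf4 had 49.6 CPM in Cre plus, against 19.6 CPM in Cre minus, a log2 ratio of 1.34 [0.89, 1.82], and Klf2 had 129 CPM in Cre plus, against 57.2 CPM in Cre minus, a log2 ratio of 1.17 [0.90, 1.44].

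Among the other AP-1 members of Malat1-rich BEC, Junb had 171 CPM in Cre plus, against 73.3 CPM in Cre minus, a log2 ratio of 1.23 [0.99, 1.47]. Fos had 44.9 CPM in Cre plus, against 22.6 CPM in Cre minus, a log2 ratio of 0.99 [0.55, 1.44]. Jun had 215 CPM in Cre plus, against 124 CPM in Cre minus (0.79 [0.61, 0.98]), and Jund 269 CPM in Cre plus, against 163 CPM in Cre minus (0.72 [0.55, 0.89]). Ier2 had the lowest ratio, with 149.95 CPM in Cre plus, against 99.4 CPM in Cre minus, a log2 ratio of 0.59 [0.38, 0.81]. No interval of the 10 reached 0. A single barcode held 8.90% of the member UMIs of Cre plus and another 24.9% of those of Cre minus, and without the 10 leading barcodes of each the summed ratio was 1.26. The single Cre plus barcode had 343343 of the 3807822 UMIs of its group, and the single Cre minus one 312373 of 2604918. Median depth was 23933.5 UMIs in Cre plus, against 13754 in Cre minus. Red cell markers took 1846 CPM in Cre plus, against 74.5 CPM in Cre minus (5 of 5 each), melanoma markers 42.0 CPM in Cre plus, against 103 CPM in Cre minus (8 of 8 each), and macrophage markers 31.5 CPM in Cre plus (8 of 9, Adgre1 at 0), against 20.3 CPM in Cre minus (7 of 9, Csf1r and Adgre1 at 0). Their part in the member levels was not tested.

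In Malat1-poor BEC the summed difference lay within counting error. The members took 766 CPM [667, 876] in 49 barcodes of Cre plus, against 807 CPM [736, 883] in 87 barcodes of Cre minus, a log2 ratio of -0.07 [-0.31, 0.16]. The 5 members with at least 50 UMIs were Jun, Junb, Jund, Ier2 and Klf2; none was at least 1.5-fold higher (10.1% of 2339 genes) and 1 was at least 1.5-fold lower (7.99%). That one was Klf2, with 16 UMIs and 57.6 CPM in Cre plus, against 101 UMIs and 171 CPM in Cre minus, a log2 ratio of -1.57 [-2.43, -0.80]. Without the leading 5% of barcodes the Klf2 ratio was 0.046. Klf4 had 1 UMI in Cre plus, against 17 UMIs in Cre minus, a log2 ratio of -3.00 [-8.39, -0.33], and Atf3 13 UMIs in Cre plus, against 5 in Cre minus, a log2 ratio of 2.46 [0.88, 4.30]. These counts are small, and a single barcode held 39.0% of the Cre plus member UMIs and another 11.1% of the Cre minus ones. Melanoma markers took 75.6 CPM in Cre plus (6 of 8, Tyr and Sox10 at 0), against 103 CPM in Cre minus (8 of 8), and their part in these levels was not tested.

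**Figure D3:**
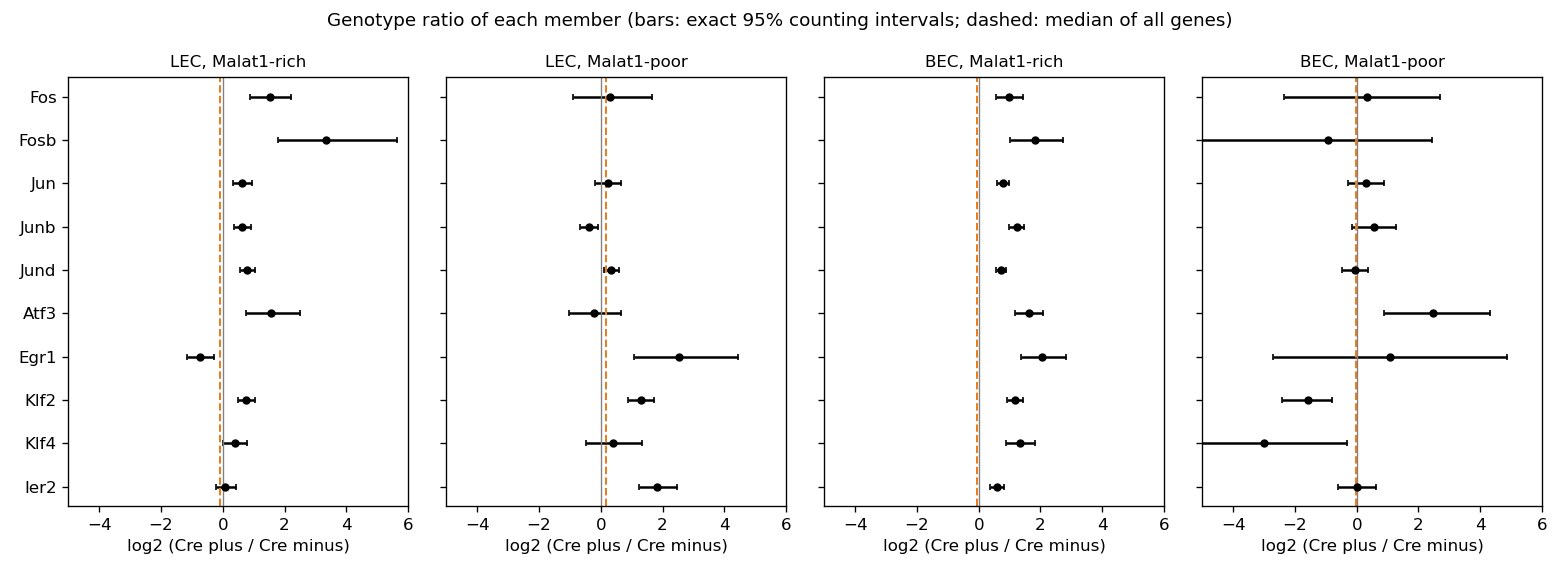
Log2 ratio of Cre plus over Cre minus (horizontal) for each member in 4 endothelial groups; bars are exact 95% counting intervals, the grey line is a ratio of 1 and the dashed line is the median of all genes with at least 50 UMIs, and Fosb in Malat1-poor LEC has no point because Cre minus had 0 UMIs. Members sit right of the dashed line in Malat1-rich BEC without exception and spread to both sides in the Malat1-poor groups.

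Within each library, Malat1-rich LEC stood above Malat1-poor LEC in the members. In Cre plus the sum was 1375 CPM in Malat1-rich and 609 CPM in Malat1-poor barcodes, a log2 ratio of 1.18 [1.10, 1.25], and in Cre minus it was 879.8 CPM and 442 CPM in that order, a log2 ratio of 0.99 [0.83, 1.16]. In Cre plus all 10 members were higher in the Malat1-rich group and 9 were at least 1.5-fold higher, but so were 60% of 11074 genes, and the medians were 1.33 over the members and 0.86 over all genes. In Cre minus 5 of 7 members with at least 50 UMIs passed 1.5-fold, beside 54.4% of 5414 genes, with medians of 1.55 over the members and 0.76 over all genes. No measured member was at least 1.5-fold lower in either library (5.34% of genes in Cre plus, 16.1% in Cre minus). With scaling to the median ratio of all genes the summed ratio fell from 1.18 to 0.33 in Cre plus and from 0.99 to 0.24 in Cre minus. How much of the difference of each member was shared with genes at large was not tested.

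Fosb, Fos and Klf4 differed most between the Malat1 groups of Cre plus LEC. Fosb had 38.1 CPM in Malat1-rich and 1.05 CPM in Malat1-poor barcodes, with 531 UMIs in the Malat1-rich and 3 UMIs in the Malat1-poor group, a log2 ratio of 5.18 [3.63, 7.46]. Fos had 74.2 CPM in Malat1-rich and 8.38 CPM in Malat1-poor barcodes (log2 ratio 3.15 [2.57, 3.80]) and Klf4 101.8 CPM and 16.8 CPM in that order (2.60 [2.19, 3.05]). Ier2 differed least, with 113 CPM in Malat1-rich and 77.9 CPM in Malat1-poor barcodes (0.54 [0.33, 0.74]), followed by Jund, with 336 CPM and 196 CPM in that order (0.78 [0.65, 0.91]). In Cre minus LEC the Klf4 ratio was 2.61 [1.78, 3.53], while Egr1 led with 50 UMIs in the Malat1-rich and 4 UMIs in the Malat1-poor group (4.18 [2.74, 6.11]). In melanoma barcodes of Cre plus Fosb again had the highest ratio, at 2.71 [2.26, 3.18], followed by Klf2 at 2.57 [1.71, 3.58] and Klf4 at 2.15 [0.99, 3.62], and Jund and Ier2 again had the lowest, at 0.27 [0.19, 0.35] and -0.03 [-0.26, 0.21]. There 7 of 9 members passed 1.5-fold, beside 38.1% of 11831 genes, and in Cre minus 7 of 10, beside 33.6% of 12641 genes; none was lower by as much (2.12% of genes in Cre plus, 2.33% in Cre minus).

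In BEC the libraries differed in this, and that difference was not tested. In Cre plus the sum was 1142 CPM in Malat1-rich and 766 CPM in Malat1-poor BEC, a log2 ratio of 0.58 [0.38, 0.78], with all 10 members higher (median 0.91 over the members and 0.63 over all genes) and 6 of them past 1.5-fold upwards beside 51.4% of 8107 genes and none downwards (11.4%). In Cre minus it was 593 CPM in Malat1-rich and 807 CPM in Malat1-poor BEC, a log2 ratio of -0.45 [-0.59, -0.29], although the median of all genes was 0.76. There 2 members passed 1.5-fold upwards (54.4% of 7399 genes) and 2 downwards (18.4%), the lower ones being Klf2 (-1.58 [-1.96, -1.20], with 38 of 101 Malat1-poor UMIs in 1 barcode) and Jund (-0.68 [-0.95, -0.40]).

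Over finer steps of Malat1 share the member level did not simply follow it. In Cre plus LEC the sum was 403 CPM at 0% Malat1, 976 CPM above 0% and under 0.1%, 1330 CPM from 0.1% to 0.5%, 1239 CPM from 0.5% to 1%, 1453 CPM from 1% to 2% and 1739 CPM from 2% upwards. In Cre minus LEC it was 246 CPM at 0%, 1035 CPM under 0.1%, 663 CPM from 1% to 2% and 574 CPM from 2%, and the 2 steps between held too few barcodes. The Cre minus LEC step under 0.1% held 302 member UMIs, of which 91 were Junb UMIs of 1 barcode. Its interval of [921, 1158] CPM overlapped the [916, 1038] CPM of Cre plus LEC in that step. Over the same 6 steps Cre plus BEC stood at 371, 953, 989, 1022, 1405 and 1076 CPM, and Cre minus BEC at 575, 1130, 940.5, 423, 405 and 384 CPM. In Cre minus BEC the step above 0% and under 0.1% carried the highest level, but its interval of [1001, 1270] overlapped the [878, 1006] of the next step. In Cre plus LEC the highest level lay at the top of the scale. Just below the split, from 0.05% to 0.1% Malat1, 15 Cre plus LEC barcodes stood at 1363 CPM and 6 Cre minus ones at 1936 CPM, and just above it, up to 0.2%, 27 Cre plus barcodes stood at 1614 CPM and 2 Cre minus ones at 1301 CPM.

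**Figure D4:**
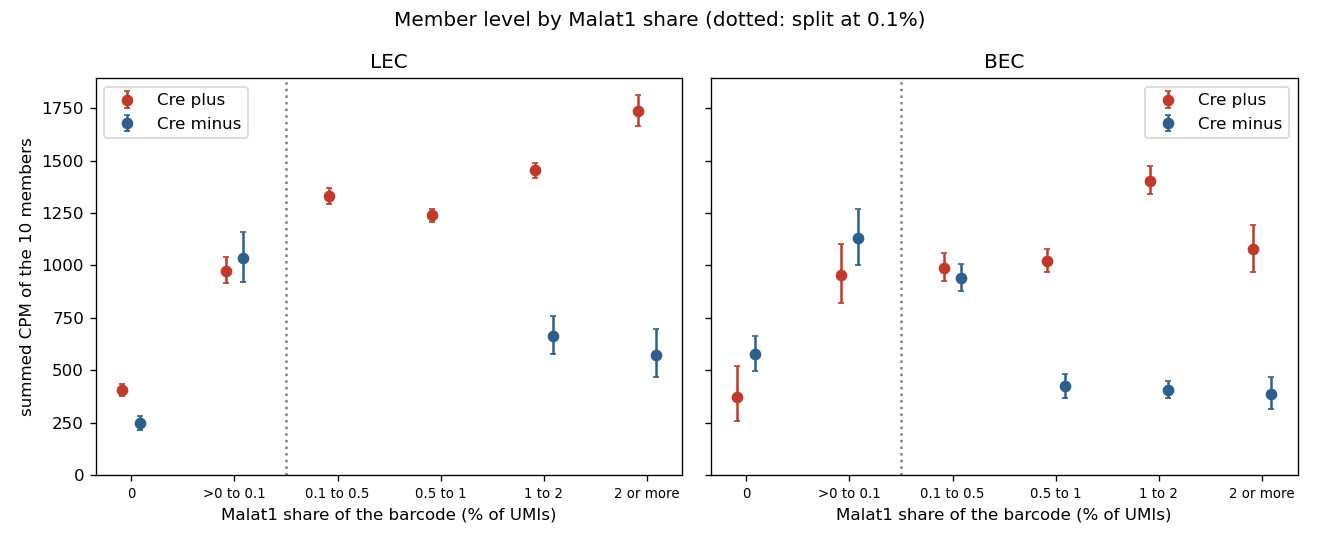
Summed level of the 10 members (CPM, vertical) by Malat1 share of the barcode (% of UMIs, horizontal steps) in LEC and BEC, red for Cre plus and blue for Cre minus, with exact Poisson 95% intervals and the split at 0.1% dotted; steps with under 10 barcodes are not drawn. Red stands above blue in every step from 0.5% upwards that has both. Just under the split red lies below blue, but there the intervals of the libraries overlap in LEC and in BEC.

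By class, LEC stood above BEC in CPM for the shear-induced pair and level with it or below for several others. Klf2 had 238 CPM in Malat1-rich LEC and 129 CPM in BEC of Cre plus, a log2 ratio of 0.89 [0.75, 1.03], and 140 CPM in LEC and 57.2 CPM in BEC of Cre minus, a log2 ratio of 1.29 [0.92, 1.65]. Klf4 had 101.8 CPM in LEC and 49.6 CPM in BEC of Cre plus (1.04 [0.82, 1.26]), against 78.0 CPM in LEC and 19.6 CPM in BEC of Cre minus (1.99 [1.44, 2.56]). Both were therefore higher in LEC in each library. Junb was higher in LEC too, at 0.35 [0.23, 0.48] in Cre plus, against 0.96 [0.61, 1.30] in Cre minus. Jun, Atf3 and Ier2 were lower in LEC of Cre plus, with log2 ratios of -0.30 [-0.41, -0.18], -0.49 [-0.71, -0.27] and -0.41 [-0.55, -0.27], while their intervals in Cre minus spanned 0. Egr1 parted the libraries, with 0.23 [-0.06, 0.53] in Cre plus, against 3.01 [2.24, 3.84] in Cre minus. Of the 10 members 4 passed 1.5-fold upwards in Cre plus (Fos, Fosb, Klf2 and Klf4; 23.6% of 11482 genes), against 4 of 9 in Cre minus (Junb, Egr1, Klf2 and Klf4; 20.6% of 8003 genes), and none passed it downwards (12.7% of genes in Cre plus, 14.5% in Cre minus). The summed ratio was 0.27 [0.22, 0.32] in Cre plus, against 0.57 [0.44, 0.70] in Cre minus, and the median ratio was 0.34 over the members and 0.18 over all genes in Cre plus and 0.25 over the 9 members and 0.15 over all genes in Cre minus.

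Malat1-poor barcodes gave another picture of LEC against BEC. The sum was 609 CPM in LEC and 766 CPM in BEC of Cre plus, a log2 ratio of -0.33 [-0.54, -0.12], and 442 CPM in LEC and 807 CPM in BEC of Cre minus, a log2 ratio of -0.87 [-1.05, -0.69]. In Cre plus 2 of 7 members passed 1.5-fold upwards (24.1% of 5642 genes) and 3 downwards (17.1%); in Cre minus 1 of 5 passed it upwards (16.6% of 3724 genes) and 4 downwards (22.6%). Klf2 was at 1.02 [0.30, 1.85] in Cre plus and at -1.85 [-2.34, -1.36] in Cre minus. Of the 101 Klf2 UMIs of Malat1-poor BEC of Cre minus 38 came from 1 barcode, and of the 16 of Cre plus 6 did.

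The melanoma cells that passed the sort carried AP-1 members and little of the zinc finger ones. In their Malat1-rich barcodes Fos stood at 198 CPM in Cre plus, against 170.1 CPM in Cre minus, Jun at 261 CPM in Cre plus, against 232 CPM in Cre minus, and Atf3 at 89.4 CPM in Cre plus, against 68.6 CPM in Cre minus. Egr1 had 25 UMIs and 0.80 CPM in 215 Cre plus barcodes and 119 UMIs and 2.39 CPM in 371 Cre minus barcodes, although their median depth was 144416 UMIs in Cre plus, against 137770 UMIs in Cre minus. Klf2 stood at 10.9 CPM in Cre plus, against 6.17 CPM in Cre minus, and Klf4 at 4.44 CPM in Cre plus, against 3.72 CPM in Cre minus. To compare shares of barcodes at equal depth, each barcode with at least 2000 UMIs was thinned to 2000 UMIs. These shares do not measure free RNA, whose part in the levels was not tested. A Klf2 UMI was then in 26.0% [21.9, 30.5] of 419 Cre plus and 31.4% [16.9, 49.3] of 35 Cre minus LEC barcodes. It was in 1.96% [0.537, 4.94] of 204 Cre plus and 0.560% [0.0679, 2.01] of 357 Cre minus melanoma barcodes. Before thinning the shares with a Klf2 UMI were 77.0% in Cre plus, against 63.9% in Cre minus for LEC, and 40% in Cre plus, against 24.5% in Cre minus for melanoma; no order of genotypes was read from them.

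Among the 6 classes with over 10 Malat1-rich barcodes, macrophages or monocytes had the highest level of Fos, Fosb, Jun and Atf3 in Cre minus, and of Fos, Jun and Atf3 in Cre plus. In 41 Cre plus and 57 Cre minus barcodes of the Malat1-rich group, Fos stood at 796 CPM in Cre plus, against 726 CPM in Cre minus, Jun at 566 CPM and 702 CPM, and Atf3 at 411 CPM and 464 CPM in that order. Fosb was at 173 CPM in Cre plus, against 208 CPM in Cre minus, close to the 175 CPM of 28 pericytes or fibroblasts of Cre plus. T or NK cells, with only 11 Cre plus and 13 Cre minus barcodes, had the highest Junb, at 802 CPM in Cre plus, against 547 CPM in Cre minus, the highest Jund, at 884 CPM in Cre plus, against 646 CPM in Cre minus, and the highest Klf2, at 328 CPM in Cre plus, against 361 CPM in Cre minus. Klf2 is known to keep T cells in a resting, circulating state. For Fos the order of the 6 classes ended with LEC and then BEC in both libraries, and the intervals of LEC, 26.0 CPM [16.1, 39.7], and BEC, 22.6 CPM [17.2, 29.2], overlapped in Cre minus. For Klf4 LEC (101.8 CPM [96.5, 107]) and macrophages (101 CPM [84.6, 119]) of Cre plus overlapped, and so did LEC (78.0 CPM [59.9, 99.7]) and macrophages (98.3 CPM [84.6, 113]) of Cre minus. For Egr1 macrophages (247 CPM) and pericytes or fibroblasts (133 CPM) led in Cre plus, and pericytes or fibroblasts (99.5 CPM [73.8, 131]) in Cre minus, where T or NK cells (69.4 CPM), macrophages (68.0 CPM) and LEC (61.9 CPM) had overlapping intervals.

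**Figure D5:**
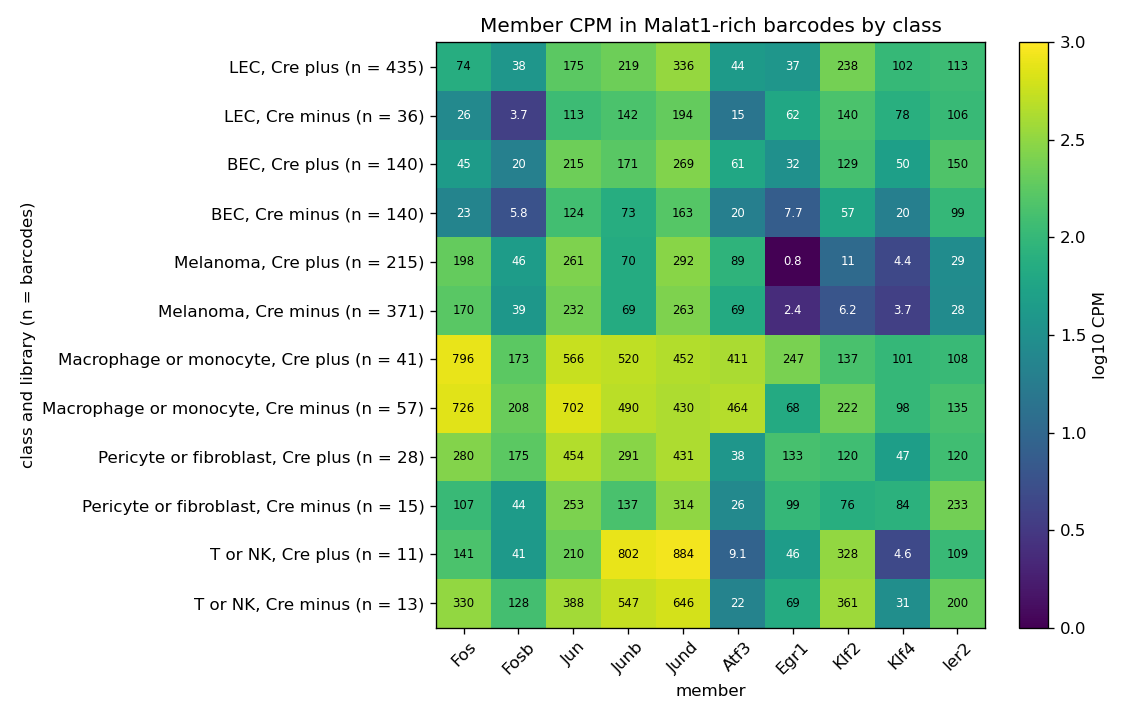
Level of each member (columns; colour is log10 CPM and the printed value is CPM) in Malat1-rich barcodes of 6 classes, Cre plus above Cre minus within a class, with the number of barcodes in brackets; colours are to be read down a column. Egr1, Klf2 and Klf4 are dark in melanoma, Fos and Atf3 are brightest in macrophages or monocytes, and Junb and Jund in T or NK cells.

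In the other classes the summed level of the Cre plus library stood above, near or below that of Cre minus. In Malat1-rich melanoma the sum was 999.9 CPM in Cre plus, against 882 CPM in Cre minus, a log2 ratio of 0.18 [0.16, 0.20]; 1 member, Klf2, was at least 1.5-fold higher (2.57% of 13246 genes) and 1, Egr1, lower (2.78%). In Malat1-poor melanoma it was 527 CPM in Cre plus, against 551 CPM in Cre minus, with 0 of 8 members at least 1.5-fold higher (1.49% of 10085 genes) and 2 lower (4.25%). In macrophages or monocytes it was 3509 CPM in Cre plus, against 3543 CPM in Cre minus, a log2 ratio of -0.01 [-0.07, 0.04]. Egr1 alone was at least 1.5-fold higher there, at 247 CPM in Cre plus, against 68.0 CPM in Cre minus (8.98% of 7184 genes), and Klf2 alone lower, at 137 CPM in Cre plus, against 222 CPM in Cre minus (7.25%). Pericytes or fibroblasts, with 28 Cre plus and 15 Cre minus barcodes, had 2089 CPM in Cre plus, against 1373 CPM in Cre minus, a log2 ratio of 0.61 [0.49, 0.73]. In them Fos, Fosb, Jun, Junb and Klf2 were at least 1.5-fold higher (9.09% of 5985 genes), with Fosb at 1.998 [1.37, 2.70] and Fos at 1.38 [0.97, 1.82], and Ier2 and Klf4 lower (13.9%), with Ier2 at -0.95 [-1.30, -0.60]. In Cre minus pericytes or fibroblasts 1 barcode held 41 of the 42 Klf4 UMIs and 1 held 58 of the 117 Ier2 UMIs. Whether the genotype ratio differed between classes was not tested.

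Members were seen together in barcodes in part. Over the 435 Malat1-rich LEC barcodes of Cre plus, Spearman's rho of the counts per UMI was 0.64 for Fos and Fosb, 0.52 for Fos and Klf4, 0.48 for Fos and Jun and 0.34 for Klf2 and Klf4. Over the 140 BEC barcodes of each library, Klf2 and Klf4 gave 0.52 in Cre plus, against 0.62 in Cre minus, and Fos and Fosb 0.40 in Cre plus, against 0.37 in Cre minus. Fos and Jun gave 0.45 in Cre plus BEC, against 0.17 in Cre minus BEC, and Fos and Klf4 0.15 in Cre plus BEC, against 0.11 in Cre minus BEC. Barcodes share a library, and each member's rho with the UMI total of the barcode ran from 0.20 to 0.36 in LEC of Cre plus. In BEC it ran from -0.02 to 0.52 in Cre plus, against -0.003 to 0.31 in Cre minus. Median depth in BEC was 23933.5 UMIs in Cre plus, against 13754 in Cre minus. The part of depth in these values was not tested. Over 15 sums of class, Malat1 group and library with at least 20 barcodes, Pearson's r of log2(CPM + 1) was highest for Fosb and Jun at 0.95, Fos and Fosb at 0.92, Fosb and Jund at 0.92, Junb and Egr1 at 0.91 and Klf2 and Klf4 at 0.91, and lowest for Fos and Klf2 at -0.07. Of 11041 other genes the 5 whose pattern over those 15 sums was most like that of the summed members were Stk17b (r = 0.96), a kinase gene, Kdm6b (0.94), a histone demethylase gene, Slc8a1 (0.92), a sodium-calcium exchanger gene, Zfp36 (0.92), an mRNA decay factor and itself an immediate-early gene, and 2810013P06Rik (0.92). The sums share 2 libraries and differ widely in depth, and these r values are descriptions.

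Other genes of the same circuit were read from lists. Of 32 further immediate-early genes 25 had at least 50 UMIs in Malat1-rich LEC, where 19 were higher in Cre plus, 11 of them by at least 1.5-fold (11.6% of all genes) and 1 lower by as much (15.7%), with a median log2 ratio of 0.52 against -0.09 over all genes. Gadd45b, a stress and growth arrest gene, had 18.7 CPM in Cre plus, against 3.71 CPM in Cre minus, a log2 ratio of 2.33 [0.77, 4.62], and Dusp5, a phosphatase of ERK, had 18.8 CPM in Cre plus, against 39.6 CPM in Cre minus, a log2 ratio of -1.08 [-1.61, -0.50]. In Malat1-rich BEC 21 of 26 were higher and 11 passed 1.5-fold (7.88% of all genes), with a median of 0.45 against -0.05, led by Socs3, the cytokine feedback inhibitor (24.7 CPM in Cre plus, against 7.29 CPM in Cre minus). In Malat1-poor LEC 12 of 17 were higher and 9 passed 1.5-fold (18.9% of all genes), with a median of 0.62 against 0.17.

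In the Malat1-rich endothelial groups the upstream kinases and factors, 21 measured in LEC and 20 in BEC, were lower more often than higher. In Malat1-rich LEC 7 were higher and 14 lower in Cre plus, with a median of -0.20 against -0.09 over all genes. By at least 1.5-fold, however, 3 were higher (11.6% of all genes) and 0 lower (15.7%). Elk3, a partner of serum response factor, had the lowest ratio of the list. It had 639.9 CPM in Cre plus, against 906 CPM in Cre minus, a log2 ratio of -0.50 [-0.61, -0.39]. Elk1 had the highest ratio and was among the 3 genes past 1.5-fold. In Malat1-rich BEC 5 of 20 were higher and 15 lower, with a median of -0.21 against -0.05 over all genes. By at least 1.5-fold 0 were higher (7.88% of all genes) and 1 lower (8.63%). That one was Mapk14, the p38α kinase gene, with 47.5 CPM in Cre plus, against 78.7 CPM in Cre minus, a log2 ratio of -0.73 [-1.02, -0.43]. Mef2c, a factor that drives Klf2, had 555 CPM in Cre plus, against 788 CPM in Cre minus of BEC. Its log2 ratio of -0.50 [-0.59, -0.42] was under 1.5-fold. Mapk7 had the highest ratio of the list in BEC and was higher in Cre plus, also by under 1.5-fold. In Malat1-poor LEC 13 of 16 upstream genes were higher in Cre plus, 5 by at least 1.5-fold (18.9% of all genes) and none lower by as much (2.86%), with a median of 0.21 against 0.17 over all genes. Of the AP-1 partners 5 of 9 were higher in Malat1-rich LEC and 4 of 8 in Malat1-rich BEC, with medians of 0.23 in LEC, against -0.09 over all genes, and 0.10 in BEC, against -0.05.

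Genes known as endothelial targets of KLF2 and KLF4 were also read from a list. Of 7 listed, 5 were measured in Malat1-rich LEC, where 1 was higher and 4 were lower in Cre plus. Their median was -0.44, against -0.09 over all genes. By at least 1.5-fold 1 was higher (11.6% of all genes) and 2 were lower (15.7%). Aqp1, a water channel induced by KLF2, had 135 CPM in Cre plus, against 317 CPM in Cre minus, a log2 ratio of -1.23 [-1.42, -1.04], and Icam1, an adhesion gene that KLF2 holds down, had 17.7 CPM in Cre plus, against 6.19 CPM in Cre minus, a log2 ratio of 1.52 [0.27, 3.15]. In Malat1-rich BEC 3 of 7 were higher and 4 lower, with a median of -0.10 against -0.05 over all genes. By at least 1.5-fold 3 were higher (7.88% of all genes) and 0 lower (8.63%). Vcam1 had 40.7 CPM (155 UMIs) in Cre plus, against 0.77 CPM (2 UMIs) in Cre minus (log2 ratio 5.73 [3.85, 8.79]). Icam1 had 86.4 CPM in Cre plus, against 16.1 CPM in Cre minus (2.42 [1.96, 2.92]). The list mixes genes that KLF2 induces with genes it holds down, such as Icam1, Vcam1 and Edn1. Its counts and medians therefore cannot show whether the targets went with Klf2 and Klf4. All 7 were at least 1.5-fold lower in Malat1-rich LEC than in BEC of Cre plus (12.7% of all genes). Their median was -2.29, against 0.18 over all genes. S1pr1, a lipid receptor gene, differed least, with 215 CPM in LEC and 385 CPM in BEC.

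Heat-shock and handling genes, which mark stress of tissue and cells, were also read. In Malat1-rich LEC 13 of 15 were higher in Cre plus, 3 by at least 1.5-fold (11.6% of all genes), with a median of 0.41 against -0.09 over all genes. In Malat1-rich BEC 12 of 15 were higher, 3 by at least 1.5-fold (7.88% of all genes), with a median of 0.25 against -0.05 over all genes. Hspa1b, an inducible chaperone gene, had 17.6 CPM in Cre plus, against 6.19 CPM in Cre minus of LEC (log2 ratio 1.51 [0.27, 3.15]) and 28.9 CPM in Cre plus, against 6.53 CPM in Cre minus of BEC (2.15 [1.40, 2.98]). In Malat1-poor LEC 5 of 13 were higher and 8 lower, with a median of -0.01 against 0.17 over all genes. By at least 1.5-fold 1 was higher (18.9% of all genes) and 3 were lower (2.86%). In Malat1-rich pericytes or fibroblasts 6 of 14 were higher and 8 lower, with a median of -0.02 against -0.05 over all genes. The list's median was thus above that of all genes in Malat1-rich LEC and BEC and below it in Malat1-poor LEC. The part of these genes in the member levels was not tested.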

How the data were processed

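Sorted tumor endothelium was profiled with single-cell 3′ kit v3.1, 1 library per genotype. The deposited matrices hold counts, raw UMIs as whole numbers per gene and barcode, per the file headers. Per the submitters' processing notes, Cell Ranger 7.0.0 and mm10 were used; annotation, intron counting and strand are not given in the sources used here. Groups come from the genotype labels. The members, gene lists, classes, comparisons and alternatives were chosen with earlier results of these data known.

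The barcode filter asked for 500 or more detected genes and less than 10% of UMIs from mitochondrial genes. A barcode joined the class, of 7, with the highest marker score (mean over the markers of the log of 1 plus UMIs per 10000, each scaled to its 99th percentile), if that score was at least 1.5 times the next, at least 3 markers were detected and haemoglobin took at most 50% of UMIs. Unplaced were 10.7% of the kept Cre plus barcodes and 8.63% of the Cre minus ones. The gate is rebuilt here and no doublet caller was run; instead, barcodes with at least 3 markers of a second class were left out as an alternative. No member is a marker.

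UMIs were summed per class, Malat1 group and library and divided by all UMIs of that sum (CPM), with exact Poisson intervals. Ratios have exact conditional binomial 95% intervals, and shares Clopper-Pearson intervals. The ratios were checked on simulated counts. With 1 library per group there is no test and no p-value. A gene counted in a comparison needed at least 50 UMIs over both groups, and at least 1.5-fold is a rule of size. Counts of 0 stand for up to 3 counts. All 10 members are described; of each other list, the genes with the highest and lowest ratios could be named. Promoters are RefSeq's, on GRCm38.p6, and coordinates GENCODE's, on mm10, matched by identifier. The alternatives changed the barcode filter, the Malat1 split, scaling, summing, depth, mixed barcodes and leading barcodes. Python 3.11.15, numpy 2.4.6, scipy 1.17.1 and pandas 2.3.3 were used.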

Additional observations from a re-analysis of the deposited data

Results flagged for a closer look

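Log2 ratios of Cre plus over Cre minus that point opposite ways in 2 endothelial groups are set side by side here. With 1 library per genotype the difference between groups was not tested. Several of these ratios changed sign under an alternative, so ranges over the reported and alternative settings are added. Junb stood at 0.62 in Malat1-rich LEC and 1.23 in Malat1-rich BEC, but at -0.39 in Malat1-poor LEC. There 91 of its 144 Cre minus UMIs came from 1 barcode, and its ratio ran from -0.83 to 2.24. Egr1 stood at -0.73 in Malat1-rich LEC, but at 2.52 in Malat1-poor LEC and 2.05 in Malat1-rich BEC. Its ratio ran from -1.24 to 0.74 in Malat1-rich LEC and from -0.50 to 3.66 in Malat1-poor LEC. Klf2 stood at 0.77 in Malat1-rich LEC, 1.30 in Malat1-poor LEC and 1.17 in Malat1-rich BEC, but at -1.57 in Malat1-poor BEC. Its ratio ran from -0.09 to 1.34 in Malat1-rich LEC and from -1.57 to 0.12 in Malat1-poor BEC. Klf4 stood at 0.38 in Malat1-rich LEC and 1.34 in Malat1-rich BEC, but at -3.00 in Malat1-poor BEC, where it had 1 UMI in Cre plus and 17 UMIs in Cre minus.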

How the results depend on the processing

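No paired analysis was possible because each genotype is 1 library. Values are log2 ratios of summed member levels, and the cause of each move was not tested. Of 72 summed values under an alternative, 33 stayed within the counting interval of the value reported. For Malat1-rich LEC (Cre plus over Cre minus, 0.64 as reported), a mean over barcodes gave 0.96, thinning to 2000 UMIs 0.81, leaving out mixed barcodes 1.23, the 10 leading barcodes 1.63 and the leading 5% 1.00. For Malat1-poor LEC (0.46), a split at 0.2% Malat1 gave 0.71, median-ratio scaling 0.30, a mean over barcodes 0.27, thinning -0.090, and leaving out the 10 leading barcodes 1.26 or the leading 5% 0.93. For Malat1-rich BEC (0.95), at least 1000 genes with under 5% mitochondrial UMIs gave 0.81, the 0.2% split 1.22, a mean over barcodes 1.06, mixed barcodes left out 1.29, 10 leading ones 1.26 and 5% 1.22. For Malat1-poor BEC (-0.07), a mean over barcodes gave -0.32, mixed barcodes left out -0.37 and 10 leading ones -0.75, and 1000 genes with 5% gave 0.08. For Malat1-rich over Malat1-poor LEC of Cre plus (1.18), the 0.2% split gave 0.75, median-ratio scaling 0.33, a mean over barcodes 1.63, thinning 1.75, mixed barcodes left out 1.58, 10 leading ones 1.51 and 5% 1.70; of Cre minus (0.99), the split gave 0.76, scaling 0.24 and 5% left out 1.63. For LEC over BEC of Cre plus (0.27), scaling gave 0.093, a mean over barcodes 0.40, thinning 0.34, mixed barcodes left out 0.53 and 10 leading ones 0.44; of Cre minus (0.57), 1000 genes with 5% gave 0.42, the split 0.78, scaling 0.41 and 10 leading barcodes left out 0.072. The 5% setting was chosen after seeing the data.

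Members whose interval as reported did not span 0 turned sign as follows. In Malat1-rich LEC, thinning gave Egr1 0.28, Klf2 -0.088 and Klf4 -0.074, and 10 leading barcodes left out gave Egr1 0.74. In Malat1-poor LEC, thinning gave Jund -0.02 and Egr1 -0.50, and Junb was 0.13 as a mean over barcodes, 2.24 without 10 leading barcodes and 1.73 without 5%. In Malat1-poor BEC, Klf2 was 0.12 without 10 leading barcodes and 0.046 without 5%. Some members whose reported interval spanned 0 also crossed it in Malat1-poor LEC (Fos, Jun, Atf3) and Malat1-poor BEC (Jun, Junb, Jund, Ier2). In Malat1-rich BEC no member turned sign under any alternative. Of 342 such values 252 stayed within their intervals. The 36 Malat1-rich LEC barcodes of Cre minus, with 711 member UMIs, limit the ratios they enter.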

Other observations

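Barcodes set aside for 10% or more mitochondrial UMIs had lower member levels than the kept ones of their class in Malat1-rich LEC and BEC. Malat1-rich LEC barcodes of this kind stood at 352 CPM over 30 barcodes of Cre plus, against 1375 CPM in the kept ones. The 30 barcodes had 32 member UMIs among 90794 UMIs, and the 435 kept ones 19193 among 13954566. Malat1-rich BEC barcodes of this kind stood at 290 CPM over 18 barcodes of Cre plus and 316 CPM over 62 barcodes of Cre minus, against 1142 CPM and 593 CPM in the kept ones of those libraries. They had 22 member UMIs among 75805 UMIs in Cre plus and 66 among 208721 in Cre minus. These LEC and BEC barcodes were shallower than the kept ones, and the part of depth in their levels was not tested. In Malat1-rich melanoma they stood at 1089 CPM over 15 barcodes of Cre plus, close to the 999.9 CPM of the kept ones, and at 476 CPM over 54 barcodes of Cre minus, against 882 CPM.

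Maff, a small Maf factor listed both among the other immediate-early genes and among the AP-1 partners, was lower in Malat1-rich than in Malat1-poor LEC of Cre plus. It had 29.0 CPM in Malat1-rich and 63.2 CPM in Malat1-poor barcodes, a log2 ratio of -1.13 [-1.38, -0.87]. Of the 25 measured other immediate-early genes 24 were higher in the Malat1-rich group. By at least 1.5-fold 23 were higher (60% of 11074 genes) and 1 lower (5.34%), with a median of 1.52 against 0.86 over all genes. Maff also had the lowest ratio of that list in Cre minus LEC and in BEC of both libraries. Nr4a1, an orphan nuclear receptor gene of the immediate-early class, was lower in LEC than in BEC, with 2.79 CPM in LEC and 45.7 CPM in BEC of Cre plus and 6.19 CPM in LEC and 39.5 CPM in BEC of Cre minus, in Malat1-rich barcodes. Cebpb, a leucine zipper factor, was higher in LEC, with 101 CPM in LEC and 28.6 CPM in BEC of Cre plus and 64.3 CPM in LEC and 18.0 CPM in BEC of Cre minus.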
